A study of Mus musculus with 9 samples.

Results

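Neuron and Schwann cell genes were examined as a set of 31 genes, chosen by name as markers of nerve cells and of the glia that wrap them. The choice was made with earlier results of these data known. These genes are 31 of the 18193 genes measured on the array, and 68 of its 45101 probe sets carry their symbols. The set holds 25 genes that most neurons use, 5 genes typical of sensory or peripheral neurons (Isl1, Pou4f1, Scn9a, Prph and Sncg) and Sox10, a factor of neural crest and Schwann cells. All 31 were above background on at least 1 array, and 20 of them on all 9 arrays.

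RNA came from mouse embryos at embryonic day 16.5, and the 9 arrays fall into 3 groups of 3: the condyle of the temporomandibular joint, the fossa of that joint, and whole body. The condyle is the head of the lower jaw in the joint, the fossa is its socket on the skull, and whole body stands as the common comparator. Strain, sex and genotype are not given in the sources used here, and no group carries a named allele or agent. All groups share laser capture of fresh frozen tissue in the labels, without saying how much was captured or which embryo gave which sample, although the design text calls the triplicates biological. The p-values therefore measure only the spread between these samples.

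Neurons carry long axons built on microtubules and neurofilaments, and they release transmitter and peptides from vesicles. Schwann cells, which arise from the neural crest, ensheathe the axons outside brain and spinal cord. The jaw joint is supplied by sensory axons whose cell bodies, with most of the neuronal RNA, lie in the trigeminal ganglion.

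The promoters of 4 genes are shown, as the 250 bases before the RefSeq start (assembly GRCm38.p6). They belong to Prph, Chgb and Gria2, whose levels differed widely between arrays of the same tissue, and to Scg2, which shares a motif with Chgb. Capitals mark the motif found on either strand, and these motifs do not overlap each other. Prph is shown for TATAAA, Chgb and Scg2 for the cyclic AMP response element TGACGTCA, and Gria2 for the RE1 element, the binding motif of a repressor of neuronal genes. Each is written 5′ to 3′ along the gene's own strand.
Prph, chr15:99054924-99055173, plus strand: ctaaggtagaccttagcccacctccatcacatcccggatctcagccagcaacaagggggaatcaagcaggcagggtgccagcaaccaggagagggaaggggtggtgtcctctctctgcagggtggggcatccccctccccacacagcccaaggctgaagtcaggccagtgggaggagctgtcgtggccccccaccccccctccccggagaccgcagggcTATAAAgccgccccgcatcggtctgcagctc
Chgb, chr2:132781392-132781641, plus strand: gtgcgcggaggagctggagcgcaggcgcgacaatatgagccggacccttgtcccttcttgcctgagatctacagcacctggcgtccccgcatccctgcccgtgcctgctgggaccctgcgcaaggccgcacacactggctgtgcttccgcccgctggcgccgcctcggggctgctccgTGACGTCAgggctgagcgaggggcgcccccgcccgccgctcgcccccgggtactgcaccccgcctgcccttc
Scg2, chr1:79440027-79440276, minus strand: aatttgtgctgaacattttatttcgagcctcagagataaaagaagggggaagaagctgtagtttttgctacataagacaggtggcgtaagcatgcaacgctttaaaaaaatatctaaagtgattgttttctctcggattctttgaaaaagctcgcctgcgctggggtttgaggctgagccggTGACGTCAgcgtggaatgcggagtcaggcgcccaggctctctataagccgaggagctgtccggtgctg
Gria2, chr3:80802836-80803085, minus strand: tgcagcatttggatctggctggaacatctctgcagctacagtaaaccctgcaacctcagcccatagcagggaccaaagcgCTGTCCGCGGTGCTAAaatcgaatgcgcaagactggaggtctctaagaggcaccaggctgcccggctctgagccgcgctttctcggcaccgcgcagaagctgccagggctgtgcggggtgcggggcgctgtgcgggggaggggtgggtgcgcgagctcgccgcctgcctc
The motif lies 31 to 26 bases before the start in Prph, 72 to 65 in Chgb, 68 to 61 in Scg2 and 170 to 155 in Gria2. Of the 31 genes, 22 had a promoter in the table. RE1 was found in 1 of the 22, against 0.0703% of 27025 genes with a window of the same length, and TGACGTCA in 2 of the 22 (9.09%), against 1.77%. TATAAA was found in 3 of the 22 (Dcx, Elavl3 and Prph; 13.6%), against 14.3%. These matches describe letters in the window only.

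Most of the listed cartilage genes were high in both captured tissues. Of 6 such genes, 5 exceeded whole body in condyle at adjusted p under 0.05, where 13.2% of all genes differed in either direction. In fossa 5 did, where 19.6% of all genes differed. Col2a1, Acan, Comp and Col9a1 were among them in both tissues. Matn1 passed in fossa alone and Sox9 in condyle alone, with Sox9 at -0.36 in fossa minus whole body (adjusted p = 0.491, limma). Between 30.3% and 46.9% of probe sets lay above background, the limit being the highest of 27 bacterial control probe sets on the array. Fossa array 1 stood apart with the lowest share, 30.3%, the highest limit (3.52, log2) and the smallest 3′ minus 5′ value of Gapdh (3.69, log2, against 4.97 to 6.86 elsewhere), a measure of RNA length. It also had the fewest of the 31 genes above background, 21, while the other 8 arrays had 24 to 30. Condyle array 3 had the largest Gapdh value, 6.86, and the lowest 18S ribosomal RNA signal, 6.70 (log2), against 10.65 and 10.19 on the other condyle arrays, 7.45 to 10.16 in fossa and 13.21 to 13.65 in whole body. The same 3′ minus 5′ value of Actb did not set condyle 3 apart (6.71, against 6.7 on condyle 1). For fossa 1 it was again the smallest, 4.79, against 5.74 to 6.71 elsewhere. In captured tissue fewer cells of a type and less RNA per cell cannot be told apart.

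The first question was how far the neuron genes varied between captures of the same tissue. The highest of 3 condyle arrays lay a median of 2.49 (log2, 5.61-fold) above the lowest over the 31 genes, that of 3 fossa arrays 1.87 (3.66-fold), and that of 3 whole body arrays 0.589 (1.5-fold). With the mean of all probe sets of a gene in place of its brightest they were 1.21 for condyle, 1.12 for fossa and 0.375 for whole body arrays. In that setting the medians over all genes were 0.246, 0.283 and 0.275 in the same order. With the brightest probe set the median ranges over all genes were 0.353 for condyle arrays, 0.412 for fossa arrays and 0.374 for whole body arrays. Over the 13190 genes above background on at least 1 joint array they were 0.544, 0.635 and 0.498 in the same order. A range over 1 was seen for 26 of 31 genes in condyle (83.9%, against 16.2% of all genes), for 25 in fossa (80.6%, against 20.9%) and for 8 in whole body (25.8%, against 16.6%). The 31 genes thus spread more widely than the median gene in all 3 tissues, and most widely in the joint captures.

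Single arrays carry much of that spread. Leaving out condyle 2 gave a median range of 1.36 over the 2 arrays left, leaving out condyle 3 gave 1.40 and leaving out condyle 1 gave 2.21, against 0.156 to 0.182 over all genes. Leaving out fossa 1 gave 0.666, leaving out fossa 2 gave 0.766 and leaving out fossa 3 gave 1.75, against 0.165 to 0.244 over all genes. In whole body the medians were 0.284 to 0.403, against 0.161 to 0.217 over all genes. A range over 2 arrays is smaller than one over 3 by construction. These left-out values were chosen after seeing the data.

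**Figure D1:**
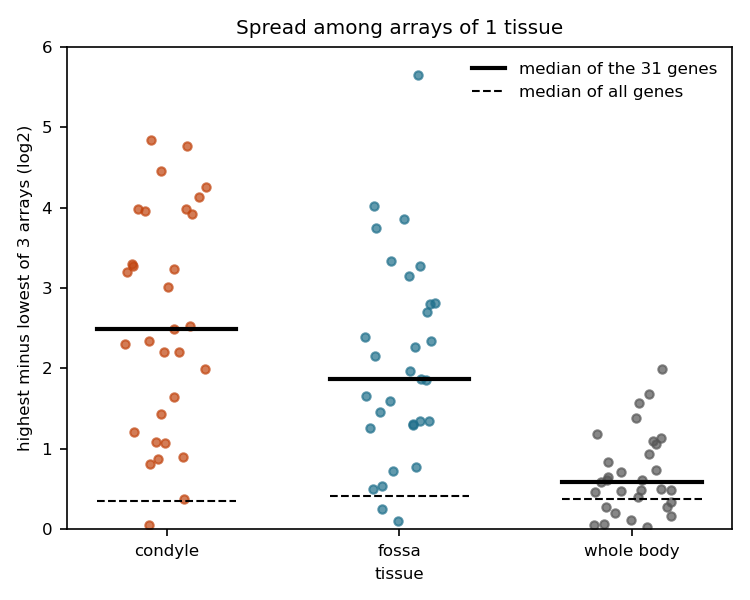
Range over the 3 arrays of each tissue (log2, highest minus lowest) for each of the 31 genes, shown as points with random sideways offset, in condyle, fossa and whole body. Solid lines are the medians of the 31 genes (2.49, 1.87 and 0.589) and dashed lines those of all genes (0.353, 0.412 and 0.374), and most points in both joint tissues lie far above the dashed line.

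The low arrays were mostly condyle 2 and fossa 1. Condyle 2 was the lowest condyle array for 25 of the 31 genes (80.6%, against 39.3% of all genes), and fossa 1 was the lowest fossa array for 25 (80.6%, against 28.4%). For 21 genes (67.7%) both held, against 13.5% of all genes and 18.2% of those above background on a joint array. The other 10 were Nefh, Prph, Scn9a, Sncg, Syt4, Sox10, Elavl3, Chga, Vsnl1 and Sncb. Condyle 3 was the highest condyle array for 21 genes (67.7%, against 32.1% of all genes) and fossa 2 the highest fossa array for 24 (77.4%, against 29.9%). The part of the RNA measures that set condyle 3 and fossa 1 apart in these orders was not tested. Probe sets of these genes that were not used at gene level showed the low condyle array more often than the low fossa array. Of the 19 above background on a condyle array 15 were lowest on condyle 2, and of the 19 above background on a fossa array 9 were lowest on fossa 1.

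**Figure D2:**
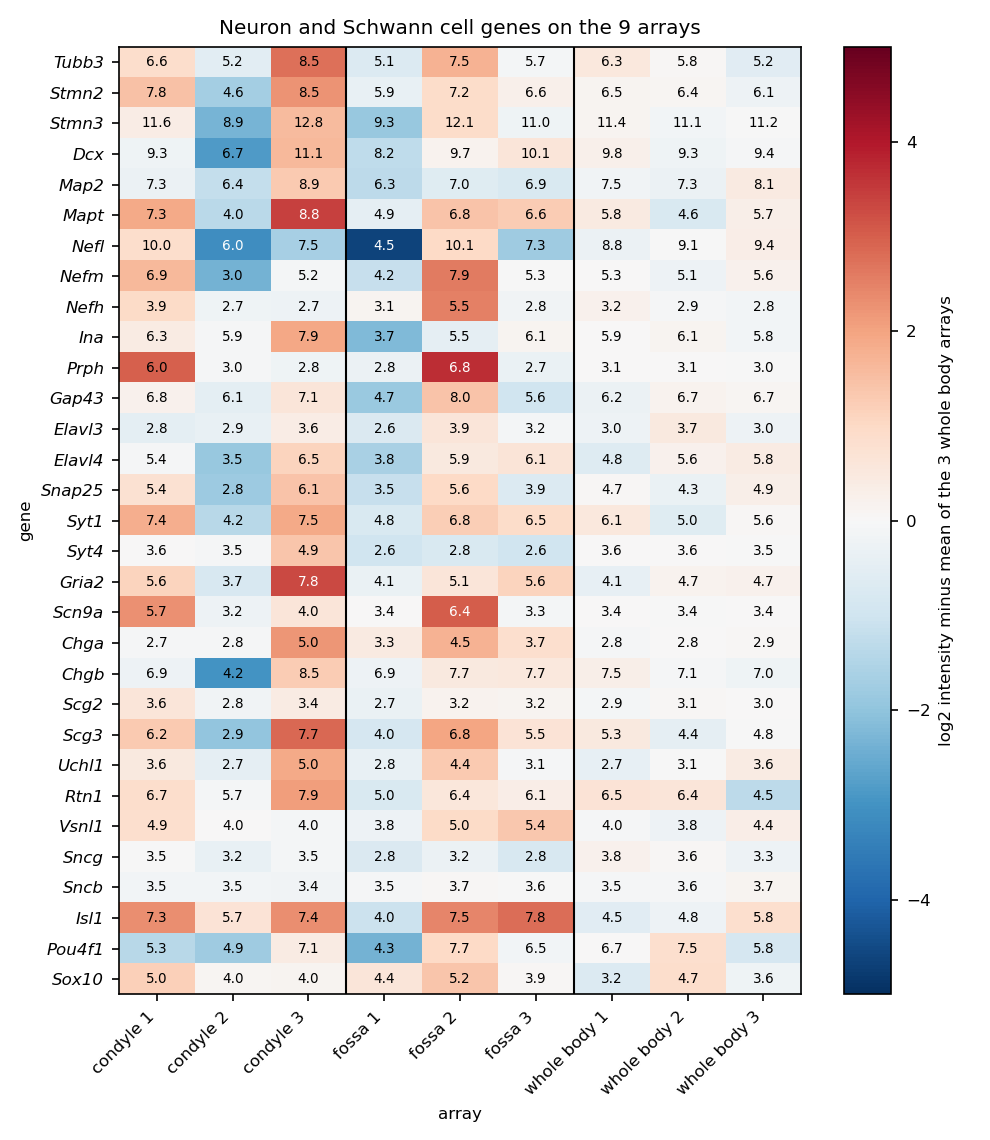
The 31 genes (rows) on the 9 arrays (columns), with the log2 intensity printed in each cell and its colour giving the difference from the mean of the 3 whole body arrays of that gene. Condyle 2 and fossa 1 are blue for most genes, condyle 3 and fossa 2 are red for most, and Prph is red on condyle 1 and fossa 2 alone.

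All levels below are log2 intensities of the probe set with the highest mean, given for arrays 1, 2 and 3 in that order, and they are compared between arrays and never between genes. Among the microtubule proteins, Dcx (doublecortin of immature neurons) had 9.28, 6.70 and 11.15 in condyle, 8.25, 9.68 and 10.11 in fossa and 9.77, 9.31 and 9.45 in whole body. The condyle arrays enclosed the whole body values, and the ratio of the highest to the lowest condyle array was 21.9-fold. Mapt, which encodes the axonal protein tau, had 7.26, 4.02 and 8.79 in condyle, 4.92, 6.79 and 6.63 in fossa and 5.80, 4.61 and 5.66 in whole body. Its condyle range was 4.76 (27.2-fold), and both joint tissues overlapped whole body. A weaker Mapt probe set (1424719_a_at), above background on all 9 arrays, had 4.46, 3.10 and 4.41 in condyle, 3.68, 4.26 and 3.38 in fossa and 5.10, 4.83 and 4.02 in whole body. It shares the low condyle 2 but not the low fossa 1.

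The other 4 microtubule genes had the array order of Mapt, each lowest on condyle 2 and fossa 1 and highest on condyle 3 and fossa 2. They are Tubb3, a neuronal beta tubulin, Stmn2 and Stmn3, stathmins that loosen microtubules in growing axons, and Map2, a protein of dendritic microtubules. Their condyle ranges were 2.49 to 3.96 and their fossa ranges 0.73 to 2.82. Stmn3 had 11.60, 8.90 and 12.82 in condyle, 9.32, 12.14 and 11.03 in fossa and 11.39, 11.11 and 11.20 in whole body. The whole body arrays differed by 0.28, while both joint tissues reached above and below them.

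Neurofilament genes, which stiffen large axons, had another order of arrays. Nefl, the light chain, had 9.98, 6.0 and 7.45 in condyle, 4.47, 10.12 and 7.32 in fossa and 8.82, 9.10 and 9.43 in whole body. Condyle 1 and fossa 2 lay above all whole body arrays and the other 4 joint arrays below them, with a range of 5.65 (50.1-fold) in fossa and 3.99 (15.9-fold) in condyle. The second Nefl probe set (1454672_at) had 8.80, 3.51 and 6.45 in condyle, 2.51, 8.42 and 4.2 in fossa and 7.52, 7.34 and 7.48 in whole body, the same order with fossa 1 at background.

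Nefm, the medium chain, had 6.94, 2.96 and 5.21 in condyle, 4.16, 7.91 and 5.29 in fossa and 5.35, 5.06 and 5.55 in whole body. Again condyle 1 and fossa 2 were above every whole body array, with a range of 3.98 (15.8-fold) in condyle and 3.75 (13.4-fold) in fossa. Nefh, the heavy chain, was above background on only 1 array of each tissue, at 3.92 on condyle 1, 5.46 on fossa 2 and 3.16 on whole body 1.

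Prph encodes peripherin, an intermediate filament of neurons with axons outside brain and spinal cord. It had 6.05, 3.01 and 2.85 in condyle, 2.76, 6.75 and 2.73 in fossa and 3.05, 3.07 and 3.04 in whole body, where all 3 arrays were at background. Condyle 1 and fossa 2 stood out from arrays at or near background, and the measured ratio of the highest to the lowest array, itself at background, was 16.3-fold in fossa and 9.19-fold in condyle. The other Prph probe sets did not show a rise of that size, and 2 of them were at background on all arrays. The third, 1420256_x_at, had 3.25, 2.86 and 2.92 in condyle, 3.15, 3.31 and 2.87 in fossa and 3.72, 3.83 and 2.89 in whole body. Within each joint tissue it was also highest on condyle 1 and fossa 2, but by little, and whole body 1 and 2 were higher still. Ina (alpha-internexin, a filament of immature neurons) was highest on condyle 3 and fossa 3, with ranges of 1.99 in condyle and 2.34 in fossa. A second Ina probe set (1448991_a_at) was highest on condyle 1 instead, with 5.0, 2.71 and 4.15 in condyle, 3.13, 6.17 and 6.53 in fossa and 3.32, 4.47 and 3.84 in whole body.

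Among the growth cone and RNA-binding genes, Gap43, a membrane protein of growing axon tips, ranged by 1.07 in condyle and 3.27 in fossa. Elavl4, which binds and stabilises neuronal messages, ranged by 3.01 in condyle and 2.27 in fossa. Its relative Elavl3 was close to background, with 1 condyle, 2 fossa and 1 whole body array above the limit.

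Among synapse and excitability genes, Gria2, an AMPA receptor subunit, had 5.59, 3.67 and 7.81 in condyle, 4.15, 5.08 and 5.61 in fossa and 4.07, 4.68 and 4.71 in whole body. Condyle 3 lay far above every other array, 17.6-fold over condyle 2. Snap25, part of the vesicle fusion machinery, ranged by 3.24 in condyle and 2.15 in fossa, and Syt1, its calcium sensor, by 3.28 and 1.96. Both were lowest on condyle 2 and fossa 1.

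Scn9a encodes a voltage-gated sodium channel of sensory and sympathetic neurons. It had 5.68, 3.16 and 4.01 in condyle, 3.41, 6.45 and 3.30 in fossa and 3.43, 3.38 and 3.42 in whole body. Condyle 1 and fossa 2 were the high arrays, as for Prph. A second probe set (1442809_at) had 4.55, 3.18 and 3.33 in condyle, 3.43, 5.85 and 3.40 in fossa and 3.57, 3.38 and 3.41 in whole body. The same 2 arrays were high there, and the other 3 Scn9a probe sets were at background on all joint arrays.

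The granins Chga, Chgb, Scg2 and Scg3 fill the dense secretory granules of neurons and endocrine cells. Chgb had 6.92, 4.19 and 8.46 in condyle, 6.94, 7.66 and 7.70 in fossa and 7.47, 7.11 and 6.97 in whole body. Only condyle had a wide range, 4.26 (19.2-fold), against 0.77 in fossa and 0.49 in whole body. Scg3 had 6.16, 2.88 and 7.72 in condyle, 4.03, 6.83 and 5.54 in fossa and 5.32, 4.39 and 4.85 in whole body. Condyle 2 was at background, with a measured ratio of condyle 3 to it of 28.6-fold, and fossa spanned 6.95-fold. Chga and Scg2 were at background on all 3 whole body arrays, Chga was above it on 1 condyle and 2 fossa arrays, and Scg2 on 2 of each.

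Of the other neuron-rich proteins, Uchl1, a ubiquitin hydrolase, ranged by 2.34 in condyle and 1.66 in fossa. Rtn1, a reticulon of the endoplasmic reticulum, ranged by 2.20 and 1.34, and Vsnl1, a calcium sensor, by 0.90 and 1.59. Sncg, a synuclein of peripheral neurons, had 3.54, 3.17 and 3.46 in condyle, 2.84, 3.25 and 2.75 in fossa and 3.76, 3.62 and 3.28 in whole body. The 3 fossa arrays lay under all whole body arrays, near the background limit. Sncb, another synuclein, was the steadiest of the 31 in the joint, with 3.44 to 3.49 in condyle, 3.55 to 3.65 in fossa and 3.54 to 3.74 in whole body.

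Of the sensory transcription factors, Isl1, which also marks some embryonic cells that are not neurons, had 7.34, 5.71 and 7.35 in condyle, 3.96, 7.47 and 7.82 in fossa and 4.47, 4.76 and 5.85 in whole body. All joint arrays but condyle 2 and fossa 1 lay above whole body. The second Isl1 probe set (1422720_at) had 4.03, 4.02 and 3.68 in condyle, 3.20, 3.26 and 3.29 in fossa and 4.09, 4.6 and 4.05 in whole body, so fossa was the lowest tissue there. Pou4f1, a regulator of sensory neuron identity, had 5.30, 4.88 and 7.09 in condyle, 4.32, 7.66 and 6.52 in fossa and 6.68, 7.52 and 5.84 in whole body. Its groups overlapped throughout. Sox10 had 5.04, 3.96 and 3.97 in condyle, 4.45, 5.24 and 3.90 in fossa and 3.16, 4.73 and 3.64 in whole body. All 3 tissues overlapped here as well, and condyle 1 and fossa 2 were its highest joint arrays. Of the other Sox10 probe sets, 1 stayed at background on all arrays and 1424985_a_at was at background in fossa, with 3.08, 2.94 and 3.14 in condyle, 2.84, 2.51 and 2.95 in fossa and 3.12, 3.10 and 3.09 in whole body.

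Probe sets not used at gene level numbered 37, of which 15 were at background on all 9 arrays. The second Stmn2 probe set (1423281_at) had 3.53, 2.71 and 4.86 in condyle, 4.52, 5.16 and 4.43 in fossa and 4.12, 3.79 and 3.84 in whole body, so that its fossa arrays lay above whole body. The second Gria2 probe set (1421970_a_at) had 4.16, 3.33 and 5.67 in condyle, 2.96, 3.39 and 4.26 in fossa and 3.91, 3.70 and 3.76 in whole body, with the joint arrays in the order of the first. A further one (1453098_at) was flat at 3.57 to 3.59 in condyle, 3.58 to 3.78 in fossa and 3.59 to 3.63 in whole body. These probe sets differ in how far the tissues stand apart, and the first 2 share the low condyle 2.

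By array order, 8 of the 31 genes were highest on condyle 1 and fossa 2 (25.8%, against 12.1% of all genes): Nefl, Nefm, Nefh, Prph, Scn9a, Sncg, Scg2 and Sox10. A further 15 were highest on condyle 3 and fossa 2 (48.4%, against 11.2%), and 6 on condyle 3 and fossa 3 (19.4%, against 8.35%): Dcx, Chgb, Gria2, Isl1, Ina and Elavl4. Vsnl1 and Sncb had other orders. As a description over the 6 joint arrays, which share their captures, Stmn3 followed the mean of the other general neuron genes with Pearson r = 0.999, Scg3 with 0.987, Prph with 0.457, Nefh with 0.358, Sox10 with 0.312 and Sncb with -0.0443.

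**Figure D3:**
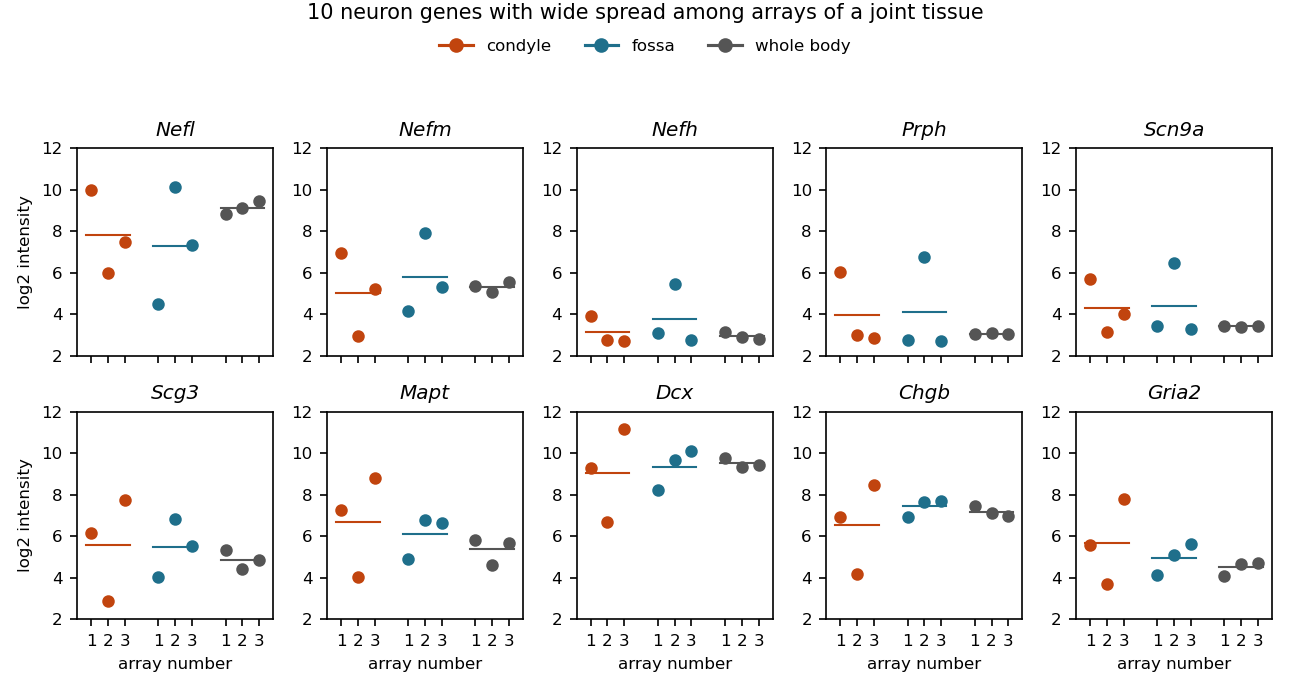
Log2 intensity on each array for 10 genes, with arrays 1 to 3 of condyle, fossa and whole body from left to right and a line at each mean of 3. Nefl, Nefm, Nefh, Prph and Scn9a (top) peak on condyle 1 and fossa 2, while Scg3, Mapt, Dcx, Chgb and Gria2 (bottom) peak on condyle 3 and all but Scg3 and Mapt on fossa 3.

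Sensory and general neuron genes were then set against each other on each array. The 25 general neuron genes averaged 5.75 ± 1.27 on condyle arrays, 5.5 ± 0.918 on fossa arrays and 5.48 ± 0.0515 on whole body arrays (log2, SD, n = 3 arrays each). The 5 sensory or peripheral genes averaged 4.84 ± 0.804 on condyle, 4.80 ± 1.44 on fossa and 4.34 ± 0.108 on whole body arrays. Sensory minus general was -0.50, -0.36 and -1.87 on condyle arrays 1, 2 and 3, -1.08, -0.05 and -0.97 on the fossa arrays and -1.25, -0.96 and -1.21 on the whole body arrays. The sign says nothing in itself, since it sets probe sets of different genes against each other. Its change between arrays can be read, but the floor limits that reading. Prph was at or near background on every joint array but condyle 1 and fossa 2. It could fall little further there, while brighter general genes still could. Sensory minus general was highest on fossa 2 and lowest on condyle 3, and the mean was -0.91 ± 0.833 over condyle, -0.70 ± 0.565 over fossa and -1.14 ± 0.159 over whole body (SD, n = 3 arrays each). The arrays of condyle reached above and below those of whole body, while 1 of the 3 fossa arrays lay above all of them. Without condyle 3 the condyle mean was -0.43, and with values under 16 intensity units set to 16 the fossa mean was -0.46. With the mean of all probe sets of a gene it was -0.95 for condyle, -0.96 for fossa and -0.90 for whole body. Both joint tissues then lay slightly under whole body, so the order of the tissues depends on the probe sets used.

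Genes outside the set that are known from the same cells or from neighbouring tissue shared these array patterns in some lists and not in others. Of 12 further sensory neuron genes measured, Trpv1, Scn10a, Tlx3 and Piezo2 were at background on all arrays. Of all 12, those at background included, 8 were highest on condyle 1 (66.7%, against 39.5% of all genes). On fossa 2 it was 7 (58.3%, against 29.9%), and 5 were highest on both (against 12.1%). The mean of the 12 was 4.12, 3.34 and 3.55 in condyle, 3.14, 4.50 and 3.22 in fossa and 3.65, 3.42 and 3.65 in whole body. Named after their values were seen, Avil (advillin of sensory neurons) had 5.5, 3.33 and 3.58 in condyle, 2.78, 6.01 and 3.12 in fossa and 3.49, 3.02 and 3.42 in whole body. P2rx3, an ATP-gated channel of pain fibres, had 4.59, 2.34 and 2.46 in condyle, 2.90, 6.26 and 2.63 in fossa and 4.2, 3.07 and 2.54 in whole body. The same 2 arrays that were high for Prph and Scn9a were high for these.

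Bone genes shared that order too. All 4 bone genes measured (Col1a1, Ibsp, Dmp1 and Sp7) were highest on condyle 1 and fossa 2, against 12.1% of all genes. Their means were 10.5, 8.08 and 8.52 in condyle, 8.69, 11 and 10.3 in fossa and 6.92, 7.03 and 6.91 in whole body. The 6 epithelial genes ran the opposite way in fossa, all lowest on fossa 2 (against 41.5% of all genes). Their means were 7.48, 8.61 and 7.97 in condyle, 8.01, 4.27 and 7.59 in fossa and 5.99, 5.92 and 5.99 in whole body. Which tissue each capture held besides the joint, and its part in the neuron gene values, was not tested.

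Of 11 brain and spinal cord genes measured, 9 were highest on condyle 3 (81.8%, against 32.1% of all genes) and 10 lowest on condyle 2 (90.9%, against 39.3%). On both condyle 2 and fossa 1, 7 were lowest (against 13.5%), while Slc17a7 was at background on all arrays. Their mean was 4.42, 3.33 and 5.89 in condyle, 3.52, 4.14 and 4.42 in fossa and 4.19, 4.26 and 4.48 in whole body. Named after their values were seen, Neurod6, a factor of forebrain neurons, had 7.46, 3.77 and 10.92 in condyle, 4.83, 5.94 and 7.50 in fossa and 6.79, 7.68 and 8.29 in whole body. Neurod2, a related factor, had 4.12, 3.27 and 8.09 in condyle, 2.20, 2.97 and 3.43 in fossa and 4.26, 3.81 and 3.81 in whole body. Condyle 3, the highest array for Dcx, Scg3, Mapt, Chgb and Gria2, was also the highest for both.

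The choroid plexus genes Folr1, Kl and Otx2 were at background on all arrays, and the mean of 5 such genes was 5.12, 5.49 and 6.32 in condyle, 3.16, 3.03 and 5.65 in fossa and 5.58, 5.37 and 5.62 in whole body. That mean hides a wide spread of Ttr. Ttr had 9.8, 11.8 and 15.2 in condyle, 5.6, 4.2 and 15.1 in fossa and 14.9, 14.7 and 14.8 in whole body. Clic6 had 8.5, 8.5 and 9.1 in condyle, 2.6, 3.5 and 5.8 in fossa and 5.4, 4.7 and 5.7 in whole body. Ttr and Clic6 were each highest on condyle 3 and on fossa 3 within the joint tissues. Of 8 skeletal muscle genes 6 were highest on condyle 3 and fossa 2 (against 11.2% of all genes) and 7 lowest on condyle 2 and fossa 1 (against 13.5%). Their means were 6.67, 5.57 and 7.63 in condyle, 6.11, 7.94 and 7.19 in fossa and 8.21, 7.95 and 8.03 in whole body. Muscle genes therefore had the array order of the larger group of neuron genes. The part of brain tissue or of muscle with its nerves in the neuron gene values was not tested.

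**Figure D4:**
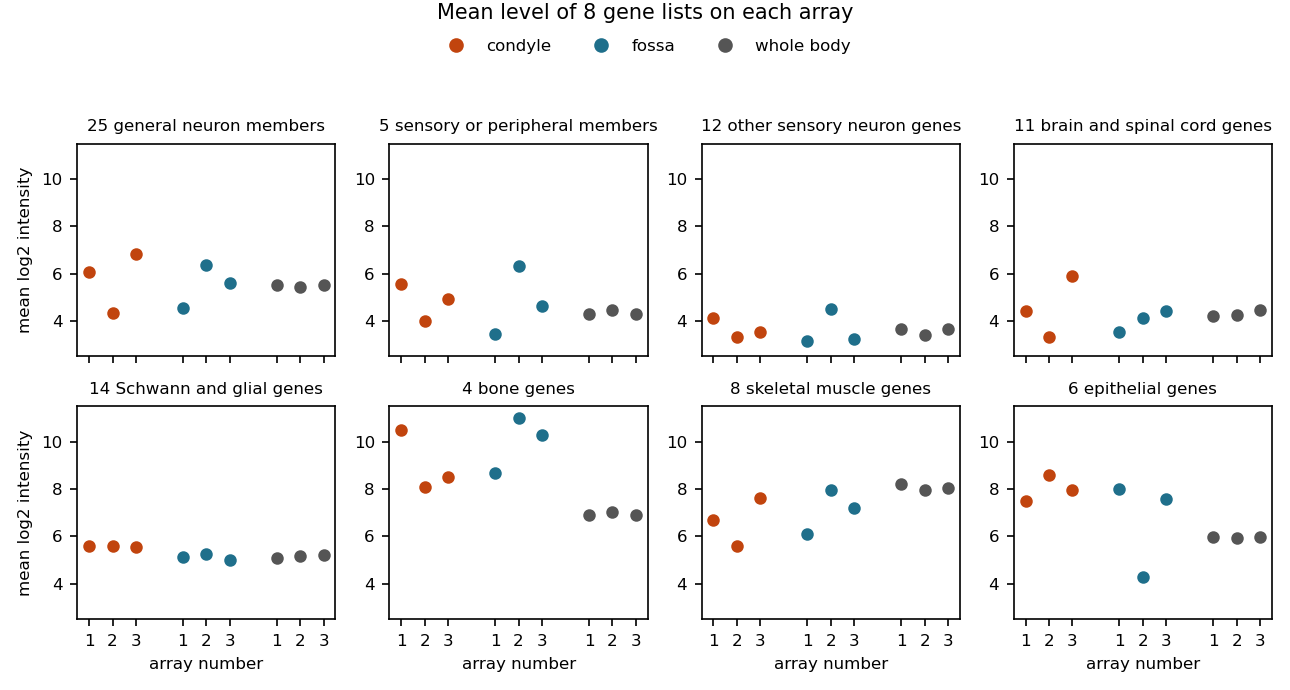
Mean log2 intensity of 8 gene lists on each array, with arrays 1 to 3 of condyle, fossa and whole body from left to right in each panel. General neuron genes and brain and spinal cord genes are highest on condyle 3, sensory genes and bone genes are highest on condyle 1 and fossa 2, and Schwann and glial genes stay between 4.98 and 5.60 on all 9 arrays.

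Schwann cell and other glial genes shared the high fossa array of Nefl and Prph more often than the high condyle array. Of 14 measured, 9 were highest on fossa 2 (64.3%, against 29.9% of all genes), 5 on condyle 1 (35.7%, against 39.5%) and 5 on both (against 12.1%). Another 5 were highest on condyle 2 (against 28.4%), while 5 were lowest on condyle 2 and 3 on fossa 1. The list mean was 5.60, 5.58 and 5.56 in condyle, 5.11, 5.24 and 4.98 in fossa and 5.07, 5.18 and 5.21 in whole body. Foxd3 was at background on all arrays. Mbp, a myelin protein named after its values were seen, had 5.90, 3.19 and 4.81 in condyle, 2.64, 7.28 and 3.34 in fossa and 5.83, 6.25 and 7.24 in whole body, the array order of Nefl. Erbb3, also named after its values were seen, ran the other way, highest on condyle 2 and fossa 1. It had 3.64, 4.67 and 3.85 in condyle, 5.13, 3.06 and 3.19 in fossa and 3.54, 4.05 and 3.46 in whole body. Several listed genes are also made by cells other than glia, such as Pmp22, S100b in cartilage and Mal in epithelium.

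Tissues were compared with limma in 1 fit of all 9 arrays, with Benjamini-Hochberg adjusted p under 0.05 over all genes as the threshold. None of the 31 genes differed between condyle and whole body, where 13.2% of all genes did, and none had an unadjusted p under 0.05, against 28.1% of all genes. The median difference was 0.28 (log2), against -0.03 over all genes. Isl1 had the largest difference, 1.78 ± 1.06 (SE, adjusted p = 0.307), followed by Mapt at 1.33 ± 1.18 (adjusted p = 0.462) and Nefl at -1.30 ± 1.51 (adjusted p = 0.565). In a fit of all probe sets the second Isl1 probe set (1422720_at) pointed the other way, at -0.34, as did the weaker Mapt one (1424719_a_at), at -0.66. The second Nefl probe set kept its direction, at -1.19. The condyle arrays lay beyond all whole body arrays for 1 gene, Sncb, which was lower by 0.14 (adjusted p = 0.249), against 53.2% of all genes. Without condyle 2, Stmn2 passed the threshold at 1.86 (adjusted p = 0.0475, limma), with 2 condyle arrays left. With all 9 arrays the second Stmn2 probe set (1423281_at) lay at -0.22, against 0.67 for the first. A p that misses the threshold does not show equal levels, and SEs near 1 leave room for differences of several fold.

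Between fossa and whole body 0 of the 31 genes passed the threshold in limma, against 19.6% of all genes, and 2 (Syt4 and Sncg) had an unadjusted p under 0.05, against 33.3% of all genes. The median difference was 0.25, against -0.11 over all genes, and 0.49 with quantile normalization. Nefl had the largest difference, -1.81 ± 1.51 (SE, adjusted p = 0.447), then Isl1 at 1.39 ± 1.06 (adjusted p = 0.405) and Prph at 1.03 ± 1.27 (adjusted p = 0.619). Sncg was nearest the threshold at -0.61 ± 0.18 (adjusted p = 0.0588), and its fossa level was above background on 1 array of 3. The fossa arrays lay beyond all whole body arrays for 4 genes, higher for Chga and lower for Map2, Syt4 and Sncg, against 42.2% of all genes. Chga, at background in whole body, was at least 1.56-fold higher in fossa (adjusted p = 0.318).

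Single arrays decided these fossa calls. Without fossa 1, Isl1 passed at 2.62 (adjusted p = 0.0396, limma), but its second probe set was lower in fossa by 1.00 (adjusted p = 0.00801) in a fit of all probe sets, where 16.8% were called. Sncg passed without fossa 2 at -0.76 (adjusted p = 0.0361) and without whole body 3 at -0.74 (adjusted p = 0.0434). Syt4 passed without condyle 3 at -0.92 (adjusted p = 0.00191), an array that enters only through the shared variance. In that fit 0 of the 31 genes had a called probe set in condyle against whole body (6.19% of all probe sets were called there, and 12% of all genes had one), 3 in fossa against whole body (28.4% of all genes had one) and 4 in condyle against fossa (16% of probe sets, 27.8% of genes). In the fit of all probe sets Snap25 was also lower in fossa by its second probe set (1447763_at), at -0.98 (adjusted p = 0.0499), with 4.23, 3.97 and 4.81 in condyle, 3.37, 3.58 and 3.30 in fossa and 4.08, 4.23 and 4.86 in whole body.

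Between condyle and fossa 1 of the 31 genes passed the threshold, Syt4, against 18.9% of all genes, and 2 (Syt4 and Sncg) had an unadjusted p under 0.05, against 33.5% of all genes. The median difference was 0.28, against 0.21 over all genes, and turned to -0.30 with quantile normalization, against -0.01 over all genes, so its direction depends on the normalization. Syt4, a synaptotagmin of secretory vesicles, had 3.58, 3.51 and 4.94 in condyle, 2.58, 2.82 and 2.57 in fossa and 3.60, 3.58 and 3.54 in whole body. The condyle arrays lay above all fossa arrays, which were at background, so Syt4 was at least 1.83-fold higher in condyle, with a measured difference of 1.36 ± 0.36 (SE, adjusted p = 0.0394, limma). Its second probe set (1415844_at) had 3.09, 2.81 and 3.09 in condyle, 3.06, 3.80 and 3.19 in fossa and 3.21, 3.66 and 4.68 in whole body, where condyle was not higher (-0.35, adjusted p = 0.585).

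The Syt4 call was lost without condyle 1 (adjusted p = 0.0519), without fossa 1, 2 or 3 (0.0968, 0.0699 and 0.105), and without whole body 1, 2 or 3 (0.0602, 0.0629 and 0.0606). Without condyle 3 the difference was 0.89 (adjusted p = 0.00604), and without condyle 2 it was 1.61 (adjusted p = 0.0424). With the mean of its probe sets it was 0.50 (adjusted p = 0.257), and over all alternatives the adjusted p ran between 0.00604 and 0.68. Without fossa 2 another gene, Gap43, passed at 1.53 (adjusted p = 0.049). Ina had the largest difference of the 31, 1.60 ± 0.70 (SE, adjusted p = 0.159). Its second probe set (1448991_a_at) went the other way, at -1.32 (adjusted p = 0.423) in the fit of all probe sets, so its direction depends on the probe set. Sncb was lower on all condyle than on all fossa arrays by 0.13 (adjusted p = 0.255). The condyle arrays lay beyond all fossa arrays for these 2 genes, Syt4 and Sncb, against 49.7% of all genes.

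**Figure D5:**
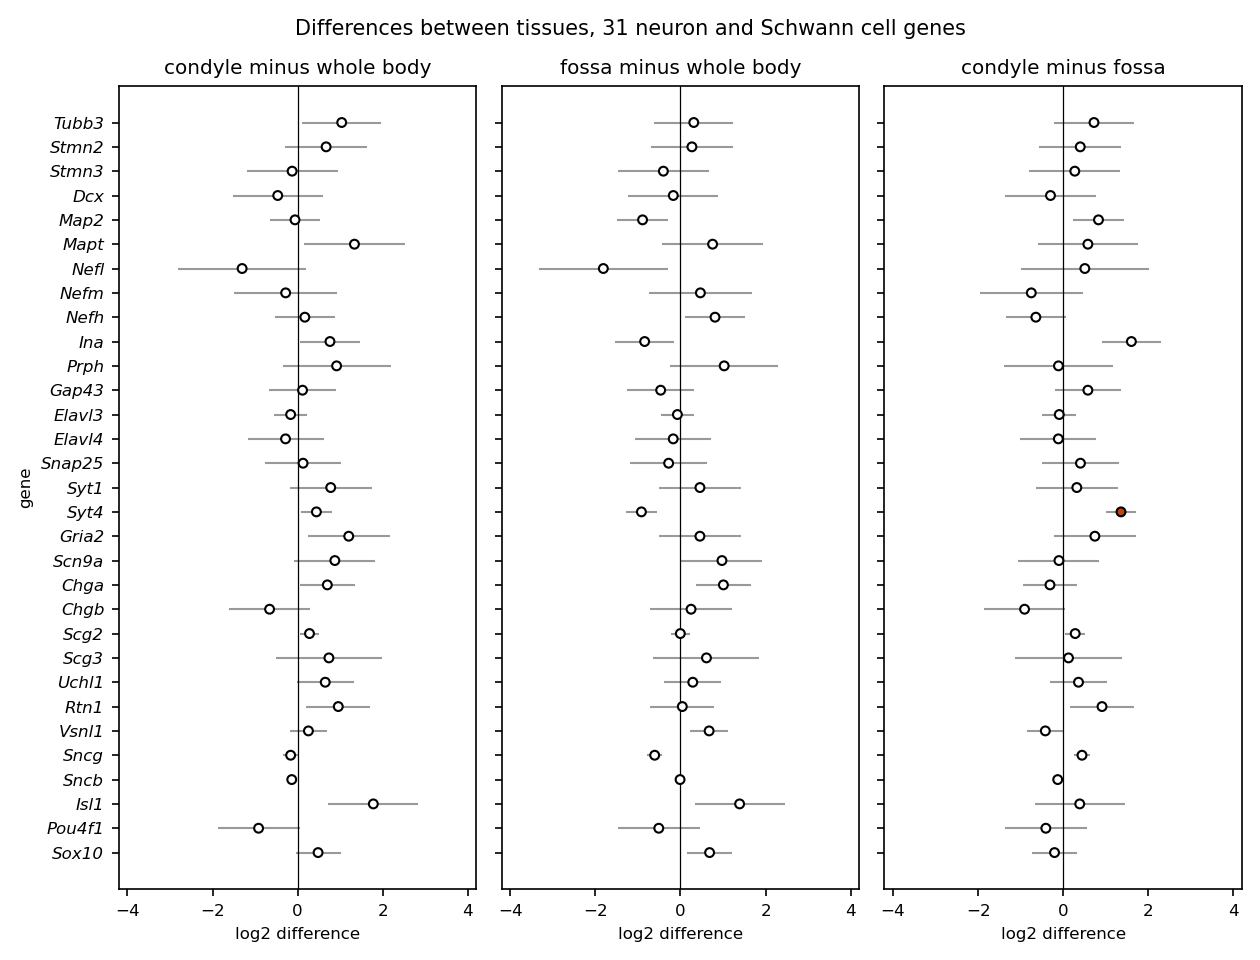
Log2 difference with its standard error for each of the 31 genes for condyle over whole body (left), fossa over whole body (middle) and condyle over fossa (right), from a limma fit of 9 arrays, with a filled point for adjusted p under 0.05. Syt4 in condyle minus fossa is the only filled point, at 1.36, and the bars of most genes cross or come near 0.

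Further genes of nerve and glia were set beside the shares of all genes that passed the threshold. These were 13.2% for condyle against whole body, 19.6% for fossa against whole body and 18.9% for condyle against fossa. With lists this short, the counts are not read as a result about nerve or glia. Of 14 Schwann and glial genes 1 was higher in condyle than in whole body, Egr2, a regulator of myelination that other cells also use, at 1.53 (adjusted p = 0.0327). It had 4.14, 5.04 and 3.94 in condyle, 4.44, 3.61 and 4.0 in fossa and 3.25, 2.77 and 2.51 in whole body, and no gene of the list passed in the other 2 comparisons. Of 12 sensory neuron genes 1 was higher in condyle than in fossa, Runx3, a factor of proprioceptive neurons and of skeletal tissue, at 1.03 (adjusted p = 0.0337). None of 11 brain and spinal cord genes passed in any comparison, with 1, 2 and 0 at an unadjusted p under 0.05 for condyle against whole body, fossa against whole body and condyle against fossa. Of all genes 28.1%, 33.3% and 33.5% had such a p in the same order. Of 17 further pan-neuronal genes 1 passed, Ank3, the ankyrin of axon initial segments, lower in fossa than in whole body at -0.92 (adjusted p = 0.0481).

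Of 6 autonomic neuron genes, Phox2a was above background only in fossa, at least 1.48-fold over whole body (adjusted p = 0.011), and condyle was at least 1.81-fold lower than fossa (adjusted p = 0.00635). Hand2 was lower in fossa than in whole body, at -1.65 (adjusted p = 0.0248), and is also a factor of jaw mesenchyme. Dbh and Th passed only on values at or near background, Dbh lower in fossa than in whole body and higher in condyle than in fossa, and Th lower in condyle than in fossa. Of 5 neurotrophin genes, Artn, a ligand for sensory and sympathetic neurons, was above background on 2 of 3 fossa arrays and on no other array, at least 1.01-fold over whole body (adjusted p = 0.000127) and, in condyle, at least 1.24-fold lower than fossa (adjusted p = 0.000378). Bdnf passed between condyle and fossa with both at background.

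Outside the nervous system, of the 4 bone genes Col1a1 was higher in condyle than in whole body and Col1a1 and Dmp1 were higher in fossa. The muscle gene Mylpf was lower in both joint tissues than in whole body, the epithelial gene Epcam lower in fossa than in condyle and whole body, and the choroid plexus gene Clic6 higher in condyle than in either. Of 4 endocrine genes Ins2 alone passed, between condyle and fossa, with 1 condyle array and no fossa array above background.

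The genes outside the set whose levels ran most like the mean of the 25 general neuron genes were found by Pearson correlation over the 6 joint arrays among 13159 genes. They were Scn3b (r = 0.995), Gab2 (0.993), Gtf2ird2, Mllt11 and Srl (0.991 each), Rab6b (0.990), Ripor1 (0.987) and Dner (0.985). Scn3b, a sodium channel subunit, had 6.81, 3.97 and 7.81 in condyle, 4.27, 7.18 and 6.33 in fossa and 5.81, 6.67 and 7.47 in whole body. Condyle 2 and fossa 1 were its low arrays, as they were for all 8, which follows from choosing them by this correlation. Gtf2ird2 moved little, between 6.34 and 6.62 on the 6 joint arrays. Srl, which encodes a calcium-binding protein of muscle, had 8.16, 6.43 and 8.94 in condyle, 6.93, 8.61 and 7.62 in fossa and 9.52, 9.37 and 10.17 in whole body. With 6 arrays and many genes ranked, high values of r describe these arrays only.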

How the data were processed

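The deposited values were intensities on a linear scale from 3.25 to 67158.9, 1 column per array, made by the authors from biotin-labelled cRNA on an Affymetrix mouse array. Per the submitters' processing notes limma was used, with no version or role. The background correction, normalization and probe summary are not given in the sources used here. Values were taken to log2. Probe sets were named by the platform annotation (34945 with 1 gene symbol, 932 with several, 9160 with none, 64 controls), and each gene took its probe set with the highest mean. Genes were tested with limma 3.58.1 in R 4.3.3 (lmFit and eBayes, 6 residual and 1.12 prior degrees of freedom), Benjamini-Hochberg adjusted over 18193 genes, after a run on simulated data. Tables and plots used Python 3.11.15, pandas 2.3.3, numpy 2.4.6 and matplotlib 3.10.9. A gene was at background where it was at or under the highest of 27 Bacillus control probe sets on all 3 arrays of a tissue. A fold is then given as "at least", the mean of the brighter tissue against the higher of limit and own value on each array of the dimmer. The number of arrays limits the precision.

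The members and all gene lists (sensory, autonomic, brain and spinal cord, pan-neuronal, Schwann and glial, neurotrophin, bone, cartilage, muscle, epithelial, choroid plexus and endocrine genes) were chosen with earlier results of these data known. Genes described with every array were those past the threshold, the 8 with the widest range in a joint tissue, the sensory genes and Sox10. List genes were named where they passed the threshold (up to 4 by size), and the 8 most alike genes by correlation. Genes named outside these rules were chosen after their values were seen. Some list genes are not analysed here. Alternatives covered normalization, a floor of 16, filtering of dim genes, choice of probe sets, a replicate block, the arrays in the fit, the variance prior and leaving out each array.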

Additional observations from a re-analysis of the deposited data

Results flagged for a closer look

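Syt4 differed between the 2 joint tissues by a test of the difference itself, condyle minus fossa 1.36 (log2, adjusted p = 0.0394, limma), with all 3 condyle arrays above all 3 fossa arrays. It was at background in fossa, and its second probe set did not show the difference.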

How the results depend on the processing

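In condyle minus whole body, 0 of the 31 genes passed under all alternatives that kept every array and 0 to 1 when 1 array was left out, while the count of all genes ran between 1470 and 2591 with 1 array left out, against 2398 with all arrays. In fossa minus whole body, 1 passed with quantile normalization (Sncb, which reversed to 0.31, adjusted p = 0.0158, against -0.01), 1 with only the 2 tissues in the fit (Syt4, -0.92, adjusted p = 0.00652, over a range of alternatives that includes 0.00191), 3 when all probe sets were fitted and 0 to 1 with 1 array left out. All genes called there numbered 1646 with a floor of 16 and 2343 to 3352 with 1 array left out, against 3559. In condyle minus fossa, 0 passed with the floor of 16 (Syt4 0.31, adjusted p = 0.68), 0 with the mean of all probe sets, 0 with only the 2 tissues in the fit (Syt4 adjusted p = 0.0916), 4 with all probe sets and 0 to 1 with 1 array left out. The 4 were Syt4, Isl1, Prph and Elavl3, the last 2 by probe sets at background on all arrays. With quantile normalization the 1 gene that passed was Sncb (-0.47, adjusted p = 0.00765) in place of Syt4 (1.11, adjusted p = 0.077). All genes called numbered 1176 with quantile normalization, 1519 with the floor and 2086 to 3515 with 1 array left out, against 3440. Of all genes called, 70.9% were higher for condyle over whole body, 20.4% for fossa over whole body and 88.8% for condyle over fossa. With quantile normalization these shares were 50.5%, 47.1% and 58.8%, and with arrays centred on the median 78.8%, 44.7% and 83.2%. The causes were not tested.

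With quantile normalization, the floor of 16 and the mean of all probe sets, the median range was 2.31, 2.07 and 1.21 in condyle, 1.80, 1.64 and 1.12 in fossa and 0.572, 0.488 and 0.375 in whole body, and it ran between 1.36 and 2.21, 0.666 and 1.75, and 0.284 and 0.403 with 1 array left out. Genes lowest on both condyle 2 and fossa 1 numbered 22, 18 and 22 under the same 3 settings, against 16.1%, 9.24% and 12.8% of all genes. Sensory minus general in whole body was -0.97 with the floor and -0.90 with the mean of all probe sets. Of the 837 member differences with 1 array left out, 824 kept their side of the threshold, and of 744 others 736 did. Among differences that were not called, 92 and 40 of them changed sign.

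With the array number as a replicate block, 0 of the 31 genes passed in any comparison (Syt4 in condyle minus fossa, adjusted p = 0.0739), and 1691, 2779 and 2537 of all genes passed for condyle over whole body, fossa over whole body and condyle over fossa. The deviations of same-numbered condyle and fossa arrays correlated at -0.332, -0.435 and 0.146. Such deviations also hold differences between captures, and the labels do not name the embryos. They therefore cannot settle whether the numbers pair the samples. Condyle 1 correlated best with fossa 2 (0.436) and condyle 2 with fossa 1 (0.444), a hint from the data and not from the design.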
